A study of Mus musculus with 12 samples.

Results

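Translation initiation and elongation factors were followed through mTOR inhibition (mTORi) in mouse embryonic stem (ES) cells. Members were all genes whose symbol begins with Eif or Eef and a digit, except the Eif4ebp genes, Eif2s3y and rows marked as pseudogenes by the suffix -ps. Of 54446 genes, 78 had such a symbol and 65 remained after these exclusions. Of the 65, 61 reached a mean of 1 TPM over all libraries and were tested. The other 4, Eef1a2, Eef1akmt3, Eif4e1b and Eif2c5, stayed at or below 1.06 TPM in every library. Eif2c5 carries an older Argonaute symbol, is annotated as a long noncoding RNA (GENCODE M21) and is no translation factor, so the label does not hold for it. Enzymes that modify factors, such as Eef2k, the Eif2ak kinases and the Eef1akmt and Eef2kmt methyltransferases, also match the symbol. They are no factors themselves but are counted among the factors below.

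RNA depleted of ribosomal RNA had been sequenced in 12 libraries, in 6 groups of 2. KH cells and DNMT3ABKO cells were collected without inhibitor (0 h) and after 72 and 144 h with the mTOR inhibitor INK128. KH served as the wild type, although both line names begin with E14 in the labels and the wild-type line is KH2 in the study's methods. DNMT3ABKO cells are knocked out for Dnmt3a and Dnmt3b, which encode the enzymes of new DNA methylation. Both lines were grown on feeders, a layer of fibroblasts that no longer divide, and cells were sorted before extraction, per the study's methods. Each genotype was represented by 1 line, so genotype and line cannot be told apart. No culture without inhibitor was sampled at 72 or 144 h among these libraries, so treatment and time in culture cannot be told apart either. The labels do not say whether replicates were separate cultures, and the study states only in general terms that experiments were repeated independently. The tests measure the spread between these libraries, which may be technical in part.

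Initiation factors assemble the ribosome on an mRNA. The eIF2 trimer brings the initiator tRNA and is recharged by eIF2B, the eIF4F group unwinds the capped end of the mRNA, and eIF3 joins both to the small ribosomal subunit. eEF1A then delivers aminoacyl-tRNAs, the eEF1B subunits recharge it, and eEF2 moves the ribosome along. The mTOR kinase controls the translation of many mRNAs of this machinery through a run of pyrimidines at their start, the TOP motif, and it controls eIF4F through the Eif4ebp proteins. The data here are RNA levels, not translation.

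Values are TPM, a share of each library's RNA corrected for transcript length, and each library summed to 1000000 TPM. A change in the total RNA of a cell is therefore not seen, and read depth is unknown. With spike-in normalization, the paper reports a global decrease of transcription under mTORi in wild-type and Dnmt3a/b knockout cells. A rise or fall below is a change in share and need not be one in RNA per cell. Between 15178 and 15811 genes reached 1 TPM per library. Replicates correlated across genes at 0.993 to 0.996, except in DNMT3ABKO cells at 0 h, where r was 0.985 and the SD between the libraries was 0.272 on the log2 scale, against 0.133 to 0.176 in the other groups. Dnmt3b, a knocked-out gene, read 142 to 258 TPM in KH and 12.7 to 27.5 TPM in DNMT3ABKO libraries, and Dnmt3a 54.7 to 144 TPM and 7.35 to 21.9 TPM. Markers of other cells moved with time in both lines. The summed level of 16 fibroblast genes was 1200 to 1273 TPM in KH cells at 0 h, 312 to 323 TPM at 72 h and 68.5 to 72.0 TPM at 144 h, and 1400 to 1497, 255 to 281 and 72.0 to 74.1 TPM in DNMT3ABKO cells. For 10 macrophage genes the sums were 291 to 315, 188 to 189 and 21.3 to 21.7 TPM in KH, and 255 to 279, 123 to 130 and 36.6 to 37.6 TPM in DNMT3ABKO cells. None of the fibroblast markers stood at 0 in all libraries of a group, and 1 macrophage marker did so in KH cells at 144 h. The summed level of 10 ES cell genes was 4321 to 4609 TPM at 0 h and 6364 to 6847 TPM later over both lines. The part of these markers in the results below was not tested, and in bulk samples fewer cells of a type and less RNA per cell cannot be told apart.

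Most factor genes that changed under mTORi fell in their share of the library's RNA, while 2 of the most abundant, Eef1a1 and Eef2, rose in share in both lines. Calls are genes with a limma p under 0.05 after Benjamini-Hochberg adjustment over all 15727 genes tested, and fold changes are on the log2(TPM + 1) scale. In KH cells at 72 h against 0 h, 5 of the 61 factors were called higher (8.2%), against 28.3% of all genes tested. In the same comparison 20 were called lower (32.8%), against 19.5% of all genes. At 144 h against 0 h, 8 KH factors were called higher (13.1%), with a background of 27.4%, and 21 lower (34.4%), with a background of 23.9%. In DNMT3ABKO cells at 72 h, 11 were called higher (18%, background 34.3%) and 15 lower (24.6%, background 21.6%). At 144 h, 9 were called higher (14.8%, background 31.4%) and 22 lower (36.1%, background 26.2%).

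The share of factors called higher was thus below the background in all 4 comparisons with 0 h, and the share called lower was above it, in DNMT3ABKO cells at 72 h only narrowly. There the split rested on the 0 h libraries that stood apart. Without DNMT3ABKO 0 h replicate 1 most factor calls there were lower, and without replicate 2 most were higher. The median log2 fold change of the factors at 72 h was then -0.16 and 0.05, and that of all genes 0.05 and 0.20. At 144 h the same omissions gave medians of -0.19 and -0.06 for the factors, and -0.01 and 0.14 for all genes. The split at 144 h moved too, with most calls lower without replicate 1 and nearly as many higher as lower without replicate 2. The median log2 fold change of the factors was -0.19 in KH cells at 72 h, where the median over all genes tested was 0.08. The corresponding medians were -0.15 and 0.05 in KH cells at 144 h, -0.08 and 0.12 in DNMT3ABKO cells at 72 h, and -0.10 and 0.05 at 144 h. The comparisons at 72 and 144 h share the 0 h libraries of their line. When each library was rescaled by its median ratio to the average library, the median over all genes tested in DNMT3ABKO cells at 72 h moved from 0.12 to -0.0045. The calls then became 5 higher and 36 lower in KH cells at 72 h, 8 and 35 at 144 h, 9 and 28 in DNMT3ABKO cells at 72 h, and 9 and 30 at 144 h. Over all 15714 genes tested under the rescaling, calls rose as well, from 7520 to 8180 and from 8070 to 8718 in KH cells. In DNMT3ABKO cells they rose from 8800 to 9226 and from 9061 to 9626. With the rescaling, 29 of 29 KH calls at 144 h, 25 of 25 at 72 h and 31 of 31 DNMT3ABKO calls at 144 h kept their call and sign. Of 26 DNMT3ABKO calls at 72 h, 24 did so, and the rises of Eif3g and Eif3l did not. The count of 25 calls in KH cells at 72 h was 14 without KH 0 h replicate 2, and also 14 without KH 72 h replicate 2.

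**Figure D1:**
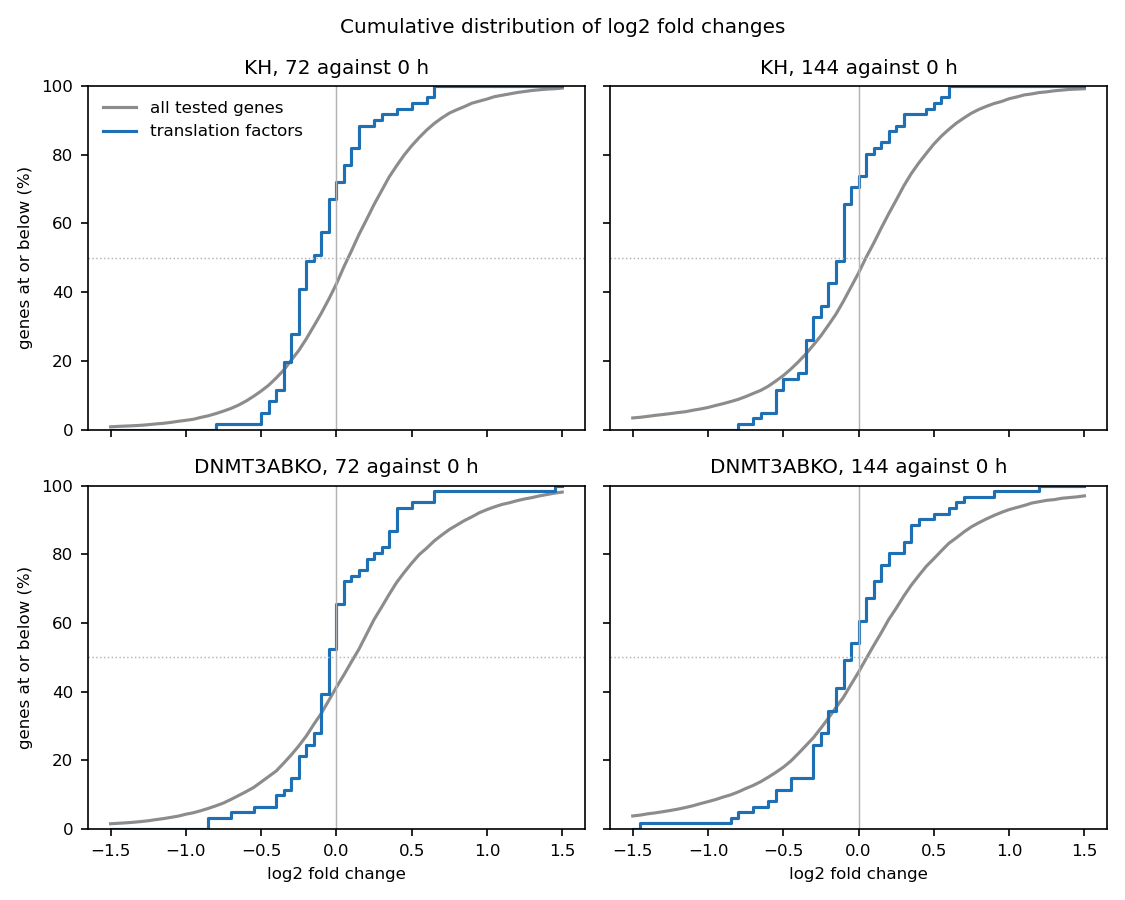
Cumulative share of genes (vertical axis, percent) at or below each log2 fold change (horizontal axis) for the 61 translation factors tested (blue steps) and all 15727 genes tested (grey line), 1 panel per comparison with 0 h, read at steps of 0.05. In each panel the blue line crosses 50% to the left of the grey line, at a median of -0.19 against 0.08 in KH cells at 72 h.

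At 72 h, 4 rises were shared by the lines, Eef1a1, Eef2, Eif4a2 and Eif4g3, which are 80.0% of the KH rises and 36.4% of the DNMT3ABKO rises. Over all genes tested the shared rises were 81.8% and 67.4%. At 72 h, 12 falls were shared, 60.0% of the KH falls and 80.0% of the DNMT3ABKO falls, against 78.5% and 70.9% over all genes. At 144 h, 5 rises were shared (62.5% and 55.6%, against 76.9% and 67.1%), the earlier 4 and Eif5a2 (whose KH call was lost without single libraries, as given with it), and 15 falls (71.4% and 68.2%, against 80.9% and 73.9%). No factor was called in opposite directions in the 2 lines. In all 4 comparisons with 0 h, 4 factors were called higher and 11 lower. The 11 were Eef1akmt1, Eef1d, Eif1ax, Eif2b4, Eif3b, Eif3d, Eif4a3, Eif4e2, Eif4h, Eif5a and Eif6. Of these, Eif1ax, Eif3b, Eif4a3, Eif4e2, Eif4h and Eif6 lost a call in at least 1 comparison when 1 library was left out, with values given with each gene.

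**Figure D2:**
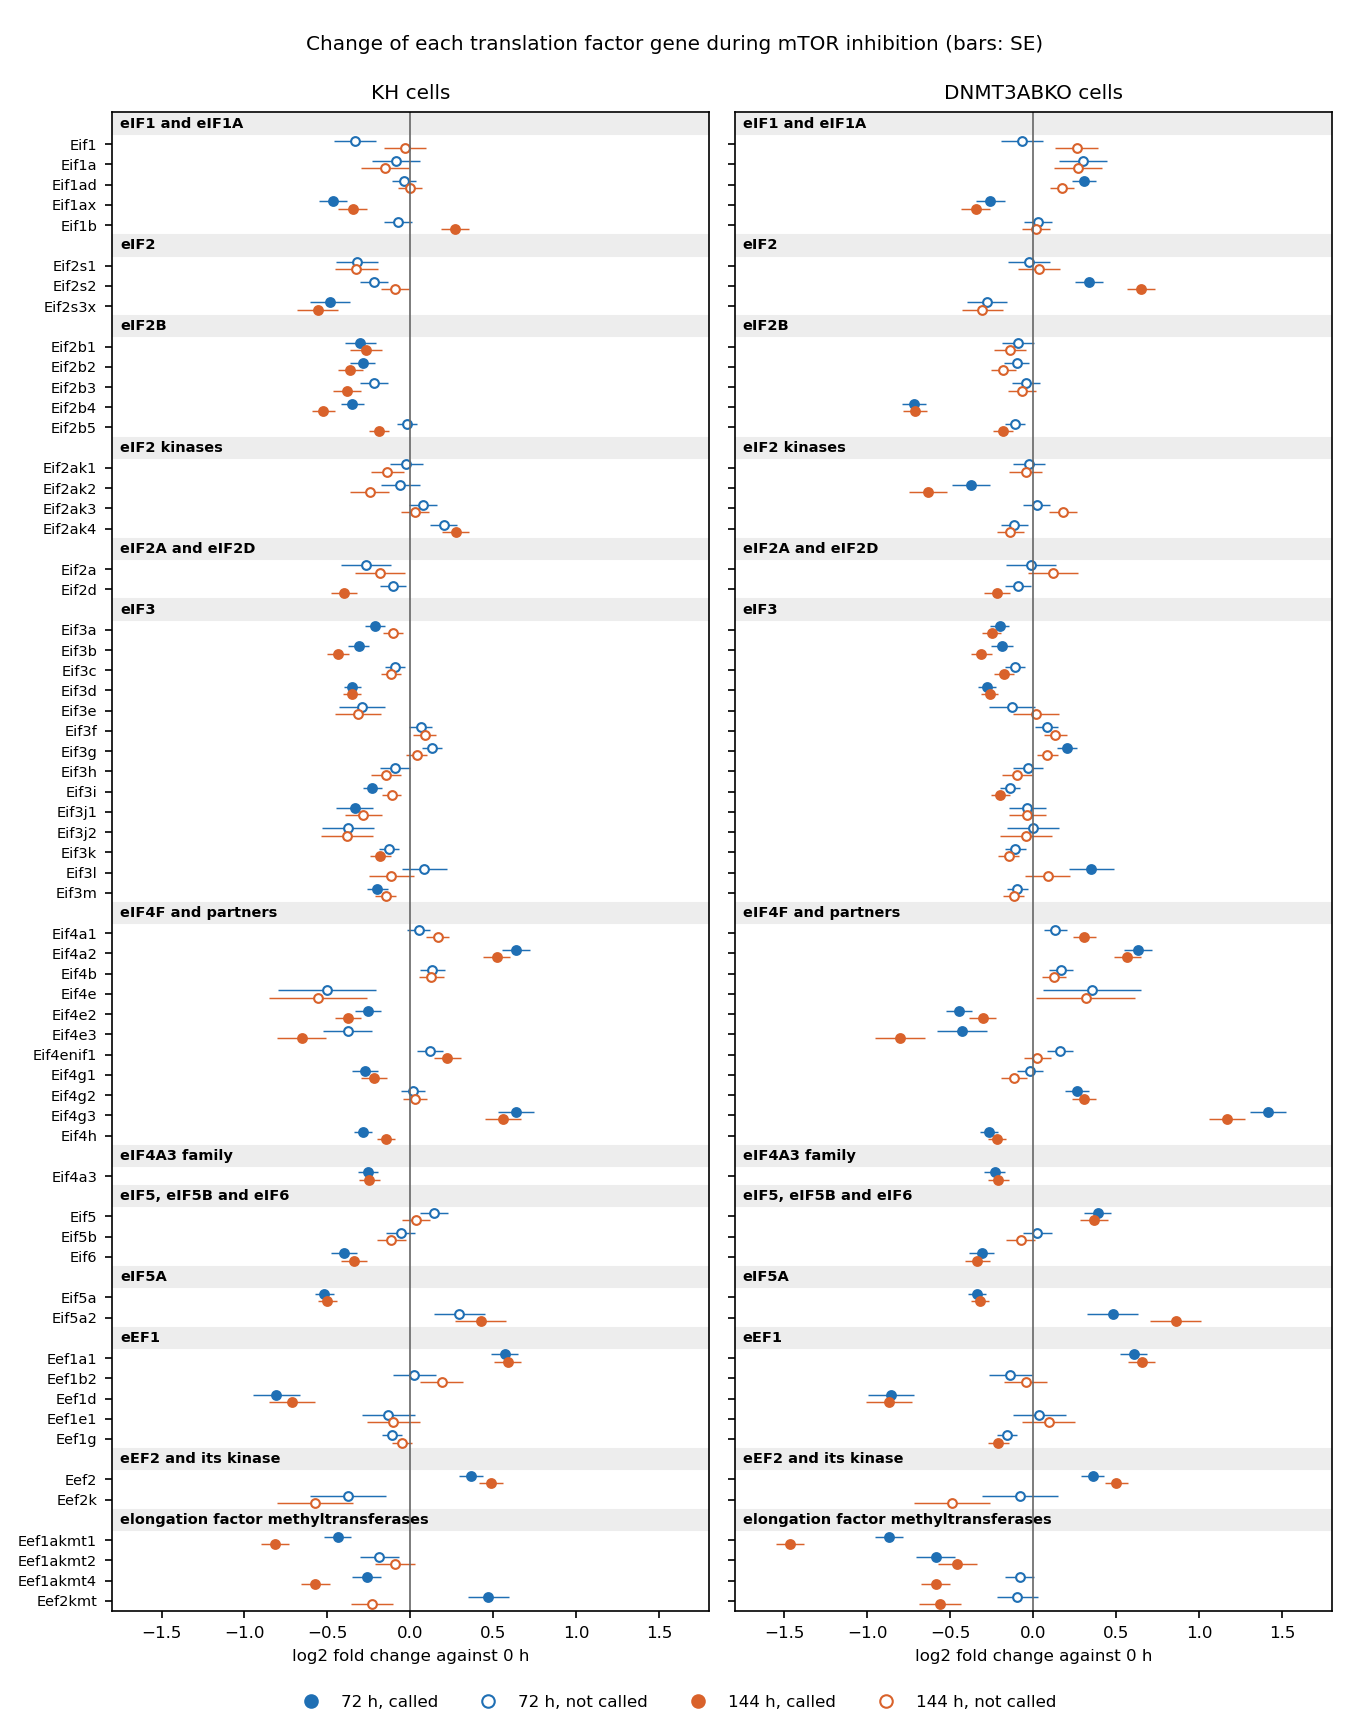
Log2 fold change against 0 h (horizontal axis) of each of the 61 factors tested, grouped by complex, in KH (left) and DNMT3ABKO (right) cells, at 72 h (blue) and 144 h (orange). Filled points were called, open points were not, and bars are the SE from limma. The elongation factors Eef1a1 and Eef2 lie to the right of 0 and Eef1d to the left in both panels, and Eif4g3 lies farthest to the right in DNMT3ABKO cells.

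Eef1a1, which encodes the carrier of aminoacyl-tRNA in most tissues, ranked between the 7th and the 9th most abundant gene in every library. In KH cells it read 6954 and 7664 TPM at 0 h, 10867 and 10762 TPM at 72 h and 10877 and 11025 TPM at 144 h. DNMT3ABKO libraries read 7139 and 7963 TPM, then 11585 and 11383 TPM, then 11739 and 11981 TPM. All treated libraries lay above all 0 h libraries, and the step from 72 to 144 h was not called in either line (adjusted p = 0.912 in KH and 0.729 in DNMT3ABKO cells, limma). The log2 fold change was 0.57 ± 0.08 (SE) in KH cells at 72 h (adjusted p = 0.000372, limma) and 0.58 ± 0.08 at 144 h (adjusted p = 0.000226, limma). In DNMT3ABKO cells it was 0.61 ± 0.08 (adjusted p = 0.000161, limma) and 0.65 ± 0.08 (adjusted p = 7.84e-05, limma). The gene lies at chr9:78478449-78489151 on the minus strand (mm10), and 40.4% of the 50-base words of its transcripts also occur in transcripts of other genes (GENCODE M21), and how far this affects its TPM was not tested. Its paralog Eef1a2, known from muscle and neurons, made up at most 0.0138% of the pair in any library.

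The factors took a larger share of the RNA over time, and most of the gain was Eef1a1. All 65 together summed to 22773 and 24583 TPM in KH cells at 0 h and to 26970 and 27230 TPM at 144 h, and in DNMT3ABKO cells to 22834 and 24432 TPM and then 28428 and 29050 TPM. Without Eef1a1 the other 64 summed to 15819 and 16919 TPM in KH cells at 0 h and 16093 and 16206 TPM at 144 h, a range within that of the 0 h libraries. In DNMT3ABKO cells the sums without Eef1a1 were 15695 and 16469 TPM at 0 h and 16689 and 17069 TPM at 144 h.

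Eef2, the translocase, rose as well. It read 1612 and 1791 TPM in KH cells at 0 h, 2238 and 2141 TPM at 72 h and 2389 and 2369 TPM at 144 h. Its DNMT3ABKO levels were 1668 and 1779 TPM, 2181 and 2239 TPM, and 2433 and 2438 TPM. The libraries of each treated group lay above those at 0 h, and the log2 fold change was 0.48 ± 0.07 in KH (adjusted p = 0.000277, limma) and 0.50 ± 0.07 in DNMT3ABKO cells at 144 h (adjusted p = 0.00017, limma). Its kinase Eef2k, which inactivates eEF2, read 9.0 and 8.31 TPM in KH cells at 0 h and 4.43 and 6.72 TPM at 144 h, and was called in no comparison. The log2 difference was -0.58 ± 0.23 in KH (adjusted p = 0.0577, limma) and -0.49 ± 0.23 in DNMT3ABKO cells (adjusted p = 0.0901, limma). With the replicate number as a block both were called (adjusted p = 0.0183 and 0.0309, limma).

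Eef1d, a subunit of the exchange factor eEF1B that recharges eEF1A, fell in both lines. It read 419 and 379 TPM in KH cells at 0 h, 220 and 235 TPM at 72 h and 229 and 256 TPM at 144 h. The DNMT3ABKO values were 508 and 364 TPM, 220 and 255 TPM, and 235 and 234 TPM. In each line the treated libraries lay below those at 0 h, although the 0 h replicates of DNMT3ABKO cells were wide apart, and the 72 and 144 h groups overlapped. The change on the log2 scale at 144 h was -0.71 ± 0.14 in KH (adjusted p = 0.00183, limma) and -0.87 ± 0.14 in DNMT3ABKO cells (adjusted p = 0.000422, limma). Eef1b2 read 1081 and 1056 TPM in KH cells at 0 h and 1206 and 1230 TPM at 144 h and was called in neither line, and Eef1g was called only in DNMT3ABKO cells at 144 h, at -0.21 ± 0.06 (adjusted p = 0.0136, limma), a call lost without DNMT3ABKO 144 h replicate 1 (-0.18, adjusted p = 0.0937, limma). Eef1g shares 44.2% of its 50-base words with other genes. The ratio of Eef1a1 to Eef1d TPM was 14 to 21.9 in the 4 libraries at 0 h and 43.0 to 52.8 in the 8 treated libraries.

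**Figure D3:**
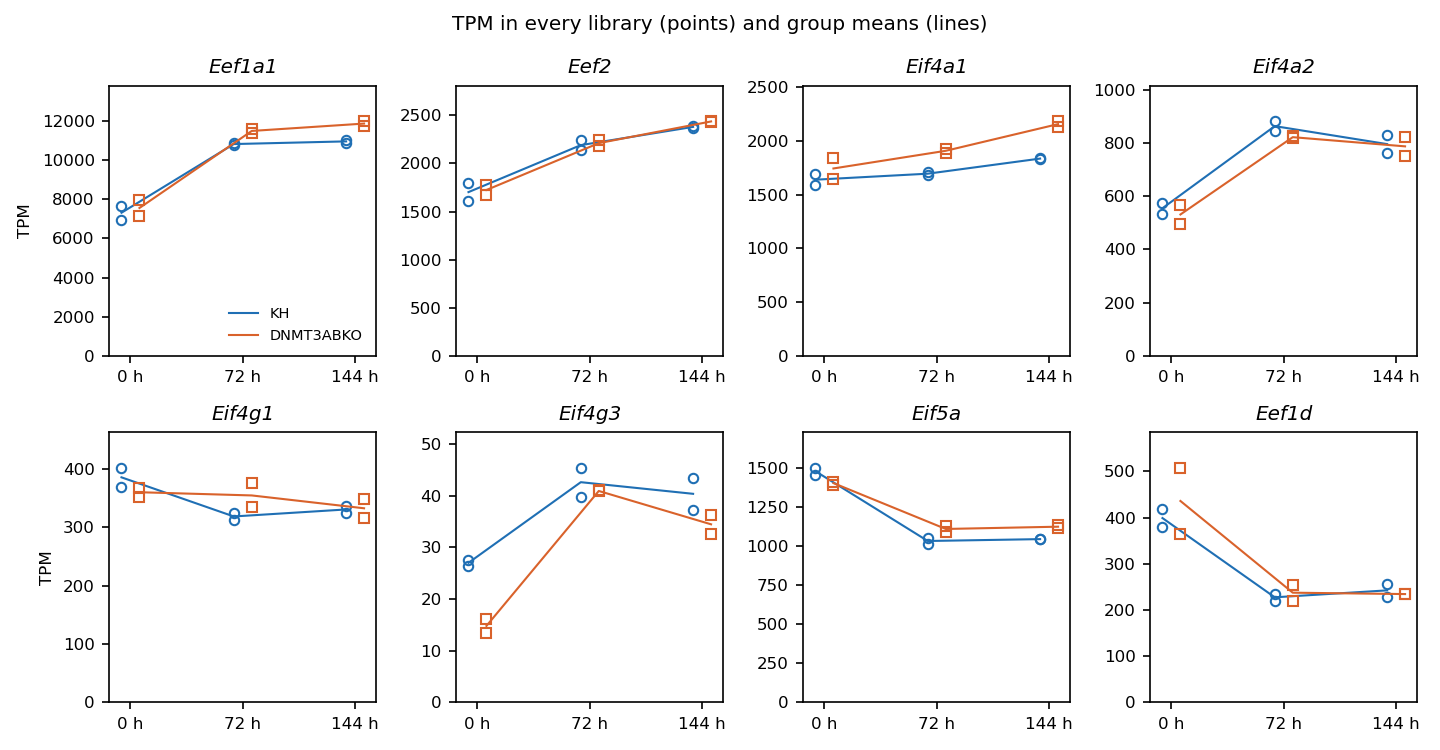
TPM (vertical axes, each from 0) of 8 factors at 0, 72 and 144 h (horizontal axes), with 1 point per library, circles for KH and squares for DNMT3ABKO cells, and lines through the means of 2 libraries. Eef1a1, Eef2, Eif4a2 and Eif4g3 rise from 0 h in both lines while Eif5a and Eef1d fall, and Eef1a1 reaches 10762 to 11981 TPM in the treated libraries.

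Of the 9 factors listed as having a TOP start (Eef1a1, Eef1b2, Eef1d, Eef1g, Eef2, Eif3e, Eif3f, Eif3h and Eif4b), Eef1a1 and Eef2 rose and Eef1d fell in all 4 comparisons with 0 h, Eef1g fell in 1 of them, and the other 5 were called in none. The median of the 9 lay between -0.03 and 0.09, and that of all genes between 0.05 and 0.12. Of all genes tested 27.4 to 34.3% were called higher and 19.5 to 26.2% lower in these comparisons. The gene starts of RefSeq (GRCm38.p6) were searched on the transcript strand for a run of at least 7 pyrimidines beginning with C, with its first base between 10 bases before and 20 bases after the annotated start. Such a run stood at 14 of the 51 factors in the table (27.5%) and at 16.9% of all 27025 genes. Of the 5 TOP-listed factors with an entry there, 4 had a run, the exception being Eef1b2. The starts of 3 of them are shown with 2 others, of Eif2s3x, a factor outside the list that fell in KH cells, and of Eif4a2, which rose without such a run. Capitals mark the run, and each line is 30 bases of the transcript strand.
Eef1a1, chr9:78481708-78481737, minus strand: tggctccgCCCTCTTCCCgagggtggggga
Eif3f, chr7:108934403-108934432, plus strand: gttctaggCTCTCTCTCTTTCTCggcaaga
Eif4b, chr15:102073775-102073804, plus strand: ccgcgccaCCCCCTCgcgctgctttacgaa
Eif2s3x, chrX:94212631-94212660, minus strand: agcattttCCTTTTCTCTCCgagcaagatg
Eif4a2, chr16:23107458-23107487, plus strand: gaaaccccgtaggagcagggcggccgagga
The longest run shown, of 15 pyrimidines at Eif3f, belongs to a gene called in no comparison with 0 h, at 150 and 162 TPM in KH cells at 0 h and 165 and 167 TPM at 144 h. Eif4b, the cofactor of the helicase eIF4A, was not called either, at 360 and 403 TPM at 0 h and 420 and 411 TPM at 144 h. A run in an annotated window is a description and not a mapped transcript start.

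Eif5a, whose product carries hypusine and relieves stalled ribosomes, fell. It read 1457 and 1502 TPM in KH cells at 0 h, 1050 and 1016 TPM at 72 h and 1045 and 1045 TPM at 144 h. For DNMT3ABKO cells the levels were 1394 and 1413 TPM, 1130 and 1090 TPM, and 1135 and 1114 TPM. The 8 treated libraries lay below the 4 at 0 h, with a log2 fold change at 144 h of -0.50 ± 0.06 in KH (adjusted p = 5.3e-05, limma) and -0.32 ± 0.06 in DNMT3ABKO cells (adjusted p = 0.000735, limma). The paralog Eif5a2 rose from 4.94 and 6.20 TPM to 7.95 and 7.59 TPM in KH cells at 144 h, and from 4.65 and 6.42 TPM to 10.3 and 11.2 TPM in DNMT3ABKO cells. The log2 fold changes were 0.42 ± 0.15 (adjusted p = 0.0411, limma) and 0.86 ± 0.15 (adjusted p = 0.000876, limma), and the difference between the lines in this response was not called (adjusted p = 0.27, limma). The KH call at 144 h was lost without KH 0 h replicate 1 or any 1 library of KH cells at 72 or 144 h or of DNMT3ABKO cells at 144 h (0.28 to 0.45, adjusted p = 0.0513 to 0.238, limma), and with the replicate block (adjusted p = 0.0523, limma). Eif5a2 nevertheless stayed below 1% of the pair in all libraries, at 0.333 to 0.452% at 0 h and 0.722 to 0.994% at 144 h.

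Of the 4 tested methyltransferases that modify elongation factors, all 4 in DNMT3ABKO cells were called lower at 144 h, with a median of -0.57, and in KH cells 2 of 4, Eef1akmt1 and Eef1akmt4, with a median of -0.40. Of all genes tested 26.2% in DNMT3ABKO and 23.9% in KH cells were called lower, with a median of 0.05 in each line. The DNMT3ABKO call of Eef1akmt2 was lost without DNMT3ABKO 144 h replicate 1 (-0.34, adjusted p = 0.0731, limma). Eef1akmt1 methylates a lysine of eEF1A. It read 42.0 and 44.5 TPM in KH cells at 0 h, 33.7 and 29.7 TPM at 72 h and 24.9 and 23.3 TPM at 144 h. DNMT3ABKO libraries read 39.8 and 37.7 TPM, 20.7 and 20.8 TPM, and 12.8 and 14 TPM. The groups of each line were ordered by time without overlap. At 144 h the log2 fold change was -0.82 ± 0.08 in KH (adjusted p = 3.03e-05, limma) and -1.47 ± 0.08 in DNMT3ABKO cells (adjusted p = 2.87e-07, limma), the largest fall of any tested member in these comparisons. Eef2kmt, the enzyme for a lysine of eEF2, went from 10.2 and 11.4 TPM in KH cells at 0 h to 14.6 and 16.2 TPM at 72 h and 8.30 and 9.85 TPM at 144 h. Its rise at 72 h was called (0.47 ± 0.13, adjusted p = 0.0116, limma), but not without KH 0 h replicate 1 or KH 72 h replicate 2 (0.40 in each, adjusted p = 0.0758 and 0.0854, limma). In DNMT3ABKO cells at 72 h its log2 difference was -0.10 ± 0.13 (adjusted p = 0.538, limma). Eef1akmt4 overlaps another gene on its strand and Eef2kmt overlaps Alg1 on the other strand, and they share 28.9% and 20% of their 50-base words with other genes.

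Within the eIF2 trimer the lines parted at Eif2s2, the beta subunit. In KH cells Eif2s2 read 489 and 524 TPM at 0 h, 426 and 443 TPM at 72 h and 470 and 478 TPM at 144 h. Its DNMT3ABKO levels were 464 and 546 TPM at 0 h, 654 and 617 TPM at 72 h and 761 and 818 TPM at 144 h. The KH libraries at 72 and 144 h lay below those at 0 h, and all treated DNMT3ABKO libraries lay above every other library. The rise in DNMT3ABKO cells was 0.34 ± 0.08 at 72 h (adjusted p = 0.00647, limma) and 0.65 ± 0.08 at 144 h (adjusted p = 9.35e-05, limma), and in KH cells the log2 differences were -0.22 ± 0.08 (adjusted p = 0.0506, limma) and -0.09 ± 0.08 (adjusted p = 0.368, limma). The DNMT3ABKO call at 72 h was lost without DNMT3ABKO 72 h replicate 1 (0.29, adjusted p = 0.0533, limma). The gene lies at chr2:154871410-154892935 on the minus strand (mm10) and overlaps the gene a on the other strand. No strand setting is given for the quantification, so reads of such partners cannot be told apart.

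The alpha and gamma subunits were not called higher in any comparison with 0 h. Eif2s1, the alpha subunit that the eIF2 kinases phosphorylate, read 127 and 145 TPM in KH cells at 0 h and 111 and 105 TPM at 144 h, and 104 and 141 TPM and then 120 and 128 TPM in DNMT3ABKO cells. It was called in no comparison. Eif2s3x, the X-linked gamma subunit, fell in KH cells from 172 and 202 TPM to 131 and 135 TPM at 72 h and 125 and 127 TPM at 144 h, a log2 fold change of -0.56 ± 0.12 at 144 h (adjusted p = 0.00354, limma). Its call at 72 h was lost without KH 0 h replicate 2 or KH 72 h replicate 1 (-0.46 to -0.37, adjusted p = 0.051 to 0.0705, limma). The DNMT3ABKO values were 141 and 190 TPM at 0 h and 132 and 133 TPM at 144 h, a log2 difference of -0.31 ± 0.12 that was not called (adjusted p = 0.0537, limma). The ratio of Eif2s2 to Eif2s1 TPM was 3.62 to 3.85 in KH cells at 0 h and 4.23 to 4.55 at 144 h, and 3.86 to 4.48 and then 6.33 to 6.40 in DNMT3ABKO cells. Eif2s3x shares 34.6% and Eif2s2 10.3% of 50-base words with other genes.

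All 5 subunits of eIF2B, which exchanges the nucleotide of eIF2, were called lower at 144 h in KH cells (median -0.36) and 3 of 5 at 72 h. Of all genes tested 23.9% and 19.5% were called lower there, and their median at 144 h was 0.05. In DNMT3ABKO cells 1 of 5 was called lower at 72 h (background 21.6%) and 2 of 5 at 144 h (background 26.2%), with a median of -0.18 at 144 h. The KH call of Eif2b1 at 144 h was lost without any 1 of 9 libraries, all but KH 0 h replicate 1 and the DNMT3ABKO 0 h pair (-0.31 to -0.18, adjusted p = 0.0549 to 0.222, limma), and that of Eif2b5 without KH 0 h replicate 2 or either KH 144 h replicate (-0.20 to -0.12, adjusted p = 0.077 to 0.169, limma). At 72 h the KH calls of Eif2b1 and Eif2b2 were lost without KH 0 h replicate 2 or KH 72 h replicate 2, and that of Eif2b1 also without KH 72 h replicate 1 (-0.30 to -0.18 over both genes), and the DNMT3ABKO call of Eif2b5 at 144 h without either DNMT3ABKO 144 h replicate (-0.20 and -0.17). No subunit differed between the lines in its response by the test of that difference, so the counts are not shown to differ. Eif2b4, the delta subunit, fell in all 4 comparisons. It read 45.1 and 42.6 TPM in KH cells at 0 h, 35.1 and 33.3 TPM at 72 h and 30.1 and 30.2 TPM at 144 h, and 45.9 and 42.0 TPM, 27.0 and 25.6 TPM, and 26.1 and 26.7 TPM in DNMT3ABKO cells. The change on the log2 scale at 144 h was -0.53 ± 0.07 in KH (adjusted p = 0.00019, limma) and -0.71 ± 0.07 in DNMT3ABKO cells (adjusted p = 1.62e-05, limma). Eif2b5, the catalytic epsilon subunit, read 92.4 and 102 TPM in KH and 123 and 125 TPM in DNMT3ABKO cells at 0 h, and 84.0 and 85.9 TPM and 108 and 111 TPM at 144 h.

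Among the 4 kinases of eIF2 alpha the calls were 1 rise in KH cells at 144 h and 1 fall in DNMT3ABKO cells at each time. The backgrounds were 27.4% for the rise, and 21.6% and 26.2% for the falls at 72 and 144 h. Eif2ak2, the kinase activated by double-stranded RNA, fell in DNMT3ABKO cells from 9.09 and 11.7 TPM to 8.01 and 7.48 TPM at 72 h and 5.91 and 6.75 TPM at 144 h, by -0.63 ± 0.12 on the log2 scale at 144 h (adjusted p = 0.000998, limma). Its call at 72 h was lost without replicate 2 of DNMT3ABKO cells at 0 or 72 h (-0.33 to -0.21, adjusted p = 0.103 and 0.104, limma). In KH cells it read 10.9 and 11.2 TPM at 0 h and 8.97 and 9.36 TPM at 144 h and was not called (adjusted p = 0.101, limma). Eif2ak4, the kinase that senses uncharged tRNA, rose in KH cells from 10.9 and 12 TPM to 13.7 and 14.3 TPM at 144 h (0.27 ± 0.08, adjusted p = 0.0179, limma) and read 10.9 and 11.9 TPM and then 10 and 10.5 TPM in DNMT3ABKO cells. The KH call was lost without KH 0 h replicate 1 or KH 144 h replicate 2 (0.21 to 0.24, adjusted p = 0.103 to 0.114, limma). Eif2ak1 and Eif2ak3 were not called in any comparison with 0 h. Eif2d, a separate initiator tRNA carrier, fell at 144 h in both lines, from 84.4 and 96.4 TPM to 66.9 and 69.5 TPM in KH cells and from 74.0 and 81.4 TPM to 65.7 and 67.4 TPM in DNMT3ABKO cells. The log2 fold changes were -0.40 ± 0.08 (adjusted p = 0.00186, limma) and -0.22 ± 0.08 (adjusted p = 0.0343, limma). The DNMT3ABKO call was lost with the replicate block (adjusted p = 0.0541, limma) and without DNMT3ABKO 0 h replicate 2 or any 1 library of DNMT3ABKO cells at 72 or 144 h or of KH cells at 144 h (-0.24 to -0.15, adjusted p = 0.0501 to 0.137, limma). Eif2a was not called.

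**Figure D4:**
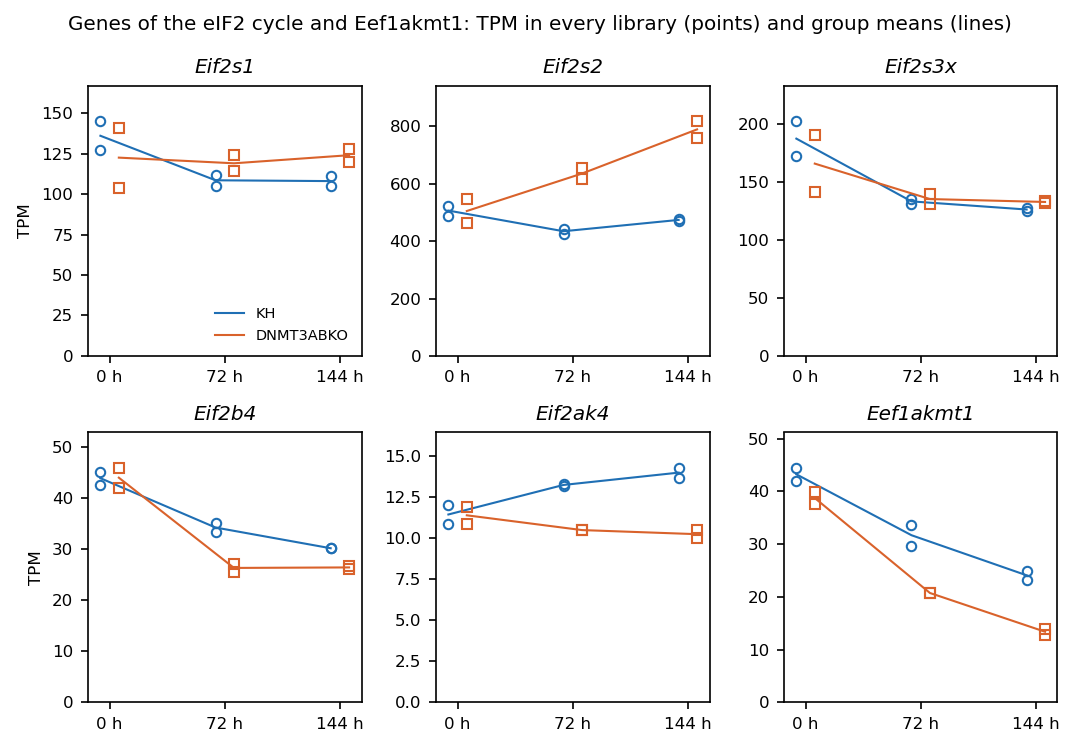
TPM (vertical axes, each from 0) of 5 genes of the eIF2 cycle and of Eef1akmt1 at 0, 72 and 144 h (horizontal axes), with 1 point per library, circles for KH and squares for DNMT3ABKO cells, and lines through the means of 2 libraries. Eif2s2 climbs to 761 and 818 TPM in DNMT3ABKO cells at 144 h and stays between 426 and 524 TPM in KH cells, and Eef1akmt1 falls further in DNMT3ABKO cells.

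Among the 14 genes of eIF3, which links mRNA to the small subunit, falls were shallow. In KH cells 6 were called lower at 72 h (background 19.5%) and 3 at 144 h (background 23.9%), with none higher. In DNMT3ABKO cells 3 were called lower and 2 higher (Eif3g and Eif3l) at 72 h (backgrounds 21.6% and 34.3%), and 5 lower at 144 h (background 26.2%). The medians were -0.21 and -0.15 in KH and -0.10 and -0.11 in DNMT3ABKO cells, and the largest fall in a comparison with 0 h was -0.44, of Eif3b. The rises of Eif3g and Eif3l at 72 h lost their call under the rescaling and without some single libraries. Eif3b, a core subunit, fell from 346 and 372 TPM to 294 and 282 TPM at 72 h and 262 and 266 TPM at 144 h in KH cells, by -0.44 ± 0.07 at 144 h (adjusted p = 0.000369, limma). For DNMT3ABKO cells the levels were 376 and 340 TPM, 312 and 315 TPM, and 284 and 291 TPM, a log2 fold change of -0.31 ± 0.07 at 144 h (adjusted p = 0.0024, limma). The DNMT3ABKO call of Eif3b at 72 h was lost with the replicate block (adjusted p = 0.0655, limma) and without any 1 of 9 libraries, all but the KH 0 h pair and DNMT3ABKO 0 h replicate 2 (-0.19 to -0.12, adjusted p = 0.0508 to 0.131, limma). Eif3a, the largest scaffold subunit, read 288 and 292 TPM at 0 h, 248 and 251 TPM at 72 h and 274 and 264 TPM at 144 h in KH cells, where it was called at 72 h only (-0.22 ± 0.06, adjusted p = 0.0135, limma). In DNMT3ABKO cells Eif3a read 274 and 281 TPM, 248 and 234 TPM, and 225 and 240 TPM and was called at both times. The calls of Eif3a at 72 h were lost without KH 0 h replicate 2 or either KH 72 h replicate in KH (-0.22 to -0.20, adjusted p = 0.0553 to 0.0756, limma) and without DNMT3ABKO 72 h replicate 2 in DNMT3ABKO cells (-0.16, adjusted p = 0.118, limma). Other KH calls at 72 h were lost without single KH libraries: Eif3i (-0.22 to -0.19), Eif3j1 (-0.38 to -0.29) and Eif3m (-0.21 to -0.18). The KH call of Eif3k at 144 h was lost without any 1 of 8 libraries (-0.21 to -0.16). In DNMT3ABKO cells at 144 h, the calls of Eif3i (-0.18) and Eif3c (-0.16 to -0.12) were lost without single DNMT3ABKO libraries. Eif3j1 and Eif3j2 share 50.9% and 91.8% of their 50-base words with other genes, mainly with each other, and cannot be read separately. The 14 genes summed to 3378 and 3654 TPM in KH cells at 0 h and 3091 and 3122 TPM at 144 h.

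The eIF4F group moved in both directions. Of its 11 tested genes, 2 were called higher and 3 lower in KH cells at 72 h, 3 and 4 at 144 h, 3 and 3 in DNMT3ABKO cells at 72 h, and 4 and 3 at 144 h. The backgrounds, higher and lower, were 28.3 and 19.5%, 27.4 and 23.9%, 34.3 and 21.6%, and 31.4 and 26.2%. Eif4a2, a paralog of the cap helicase Eif4a1, rose in both lines. It read 534 and 576 TPM in KH cells at 0 h, 845 and 882 TPM at 72 h and 763 and 829 TPM at 144 h, and 496 and 567 TPM, 819 and 825 TPM, and 752 and 823 TPM in DNMT3ABKO cells. All treated libraries lay above those at 0 h, and the log2 fold change at 72 h was 0.64 ± 0.08 in KH (adjusted p = 0.0002, limma) and 0.63 ± 0.08 in DNMT3ABKO cells (adjusted p = 0.000137, limma). Eif4a2 holds 5 snoRNA genes on its strand, Eif4a1 holds 3 and Eef2 holds 1, and 9 of the 65 members hold any. Whether reads from them entered the TPM of these genes was not tested. Eif4a1 and Eif4a2 share 28.4% and 13.6% of their 50-base words with other genes.

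Eif4a1, the main helicase, was called in 1 comparison with 0 h. It read 1588 and 1693 TPM in KH cells at 0 h, 1685 and 1708 TPM at 72 h and 1833 and 1841 TPM at 144 h (adjusted p = 0.0722 at 144 h, limma). In DNMT3ABKO cells it rose from 1647 and 1843 TPM to 1927 and 1892 TPM at 72 h and 2131 and 2185 TPM at 144 h, called at 144 h (0.31 ± 0.07, adjusted p = 0.00344, limma). The log2 difference at 72 h, 0.05 in KH and 0.13 in DNMT3ABKO cells, turned to -0.062 and -0.0054 under the rescaling. The share of Eif4a2 in the pair in KH cells was 25.2 and 25.4% at 0 h, was 33.4 and 34.1% at 72 h and stood at 29.4 and 31.1% at 144 h. In DNMT3ABKO cells it was 23.2 and 23.5%, 29.8 and 30.4%, and 26.1 and 27.4%. In each line the share was highest at 72 h and the 144 h libraries lay between those of the earlier times.

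Eif4g3, a paralog of the scaffold Eif4g1, rose in both lines from a lower start in DNMT3ABKO cells. It read 26.4 and 27.6 TPM in KH cells at 0 h, 45.4 and 39.8 TPM at 72 h and 43.5 and 37.2 TPM at 144 h. DNMT3ABKO libraries read 16.1 and 13.5 TPM at 0 h, 40.8 and 41.0 TPM at 72 h and 36.3 and 32.6 TPM at 144 h. The lines were apart at 0 h, and at 72 h both DNMT3ABKO libraries lay between the KH libraries. The log2 fold change at 72 h was 0.64 ± 0.11 in KH (adjusted p = 0.00103, limma) and 1.41 ± 0.11 in DNMT3ABKO cells (adjusted p = 4.29e-06, limma), and at 144 h 0.56 ± 0.11 (adjusted p = 0.00178, limma) and 1.17 ± 0.11 (adjusted p = 9.61e-06, limma). The gene spans chr4:137993022-138208508 on the plus strand (mm10), and none of its 50-base words occurs in another gene. Eif4g1 fell in KH cells from 369 and 402 TPM to 324 and 313 TPM at 72 h (-0.27 ± 0.08, adjusted p = 0.016, limma) and 336 and 325 TPM at 144 h. Its DNMT3ABKO levels were 352 and 368 TPM at 0 h, 375 and 334 TPM at 72 h and 316 and 349 TPM at 144 h, with no call. The KH call of Eif4g1 at 72 h was lost without KH 0 h replicate 2 or either KH 72 h replicate (-0.30 to -0.21, adjusted p = 0.0529 to 0.1, limma). That at 144 h was lost without these or either KH 144 h replicate (-0.24 to -0.16, adjusted p = 0.0549 to 0.192, limma) and with the replicate block (adjusted p = 0.0698, limma). Eif4g3 made up 6.43 and 6.68% of the pair in KH cells at 0 h and 10.3 to 12.3% later, and 3.54 and 4.37% and then 8.54 to 10.9% in DNMT3ABKO cells. Eif4g2, a scaffold that cannot bind the cap protein, was called higher in DNMT3ABKO cells at both times, by 0.27 and 0.30, while its log2 differences in KH cells were 0.01 and 0.03. Its call at 72 h was lost without DNMT3ABKO 72 h replicate 1 (0.24, adjusted p = 0.0698, limma).

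Eif4e, the cap-binding protein itself, varied widely between replicates. It read 75.6 and 117 TPM in KH cells at 0 h, 55.1 and 79.1 TPM at 72 h and 72.6 and 55.5 TPM at 144 h, and 48.6 and 92.4 TPM, 82.7 and 89.4 TPM, and 78.2 and 89.7 TPM in DNMT3ABKO cells. The SE of each log2 difference was 0.30, and no comparison was called. Its paralog Eif4e2, which competes for the cap without driving initiation, fell from 149 and 163 TPM to 135 and 126 TPM at 72 h and 123 and 117 TPM at 144 h in KH cells (-0.38 ± 0.08 at 144 h, adjusted p = 0.00285, limma). The DNMT3ABKO values were 136 and 149 TPM, 103 and 105 TPM, and 121 and 109 TPM (-0.31 ± 0.08 at 144 h, adjusted p = 0.00772, limma). Calls of Eif4e2 were lost in KH cells at 72 h without KH 0 h or 72 h replicate 2 (-0.21 and -0.19, adjusted p = 0.139 to 0.149, limma) and in DNMT3ABKO cells at 144 h without replicate 2 of that group (-0.23, adjusted p = 0.0789, limma). Eif4e3, a low paralog, fell from 1.58 and 2.12 TPM to 0.970 and 0.645 TPM at 144 h in KH cells and from 1.42 and 1.88 TPM to 0.589 and 0.445 TPM in DNMT3ABKO cells, by -0.66 ± 0.15 (adjusted p = 0.0043, limma) and -0.80 ± 0.15 (adjusted p = 0.00107, limma). The level of Eif4e3 fell beside the fibroblast and macrophage sums, and their part in it was not tested. Eif4h, a helicase cofactor, was lower in all 4 comparisons, by 0.15 to 0.29 on the log2 scale. Its call in KH cells at 144 h was lost with the replicate block (adjusted p = 0.0956, limma) and without any 1 of the libraries other than the DNMT3ABKO 0 h pair (-0.16 to -0.13, adjusted p = 0.0611 to 0.158, limma).

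**Figure D5:**
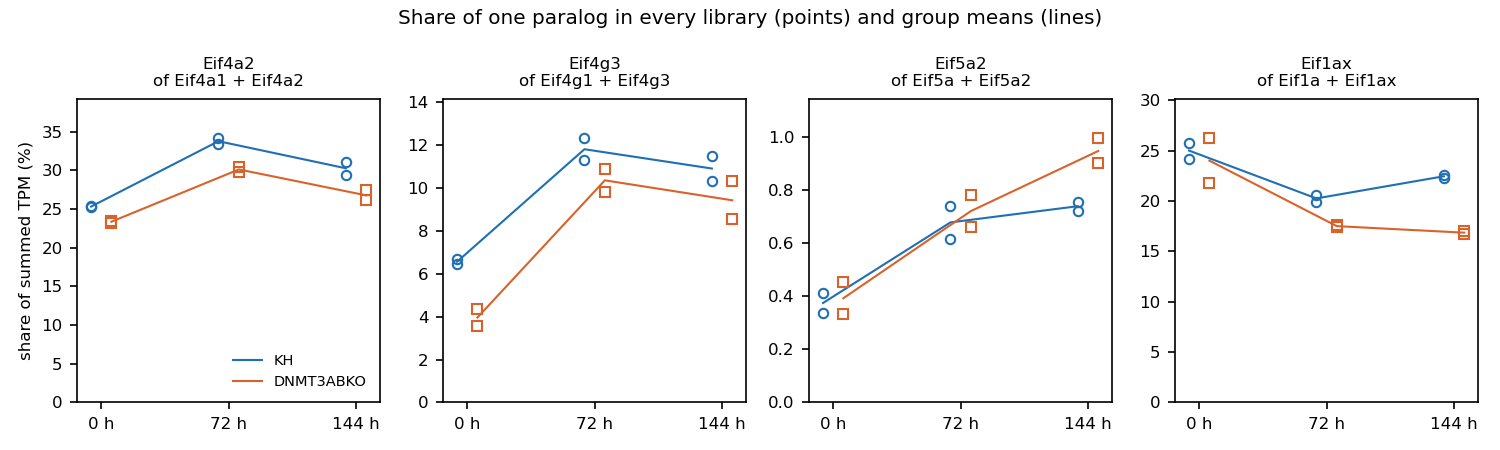
Share of 1 paralog in the summed TPM of its pair (vertical axes, percent, each from 0) at 0, 72 and 144 h (horizontal axes), with 1 point per library, circles for KH and squares for DNMT3ABKO cells, and lines through the means of 2 libraries. Eif4a2 takes 25.2 and 25.4% of its pair in KH cells at 0 h and 33.4 and 34.1% at 72 h, Eif4g3 and Eif5a2 also gain, and Eif1ax loses share from 0 to 72 h.

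The start-site factors showed a paralog shift as well. Eif1ax, an eIF1A gene on the X chromosome, fell from 49.9 and 46.8 TPM to 34.5 and 34.9 TPM at 72 h and 38.0 and 37.5 TPM at 144 h in KH cells, and from 35.7 and 41.7 TPM to 34.0 and 30.3 TPM and 29.5 and 30.7 TPM in DNMT3ABKO cells. It was called lower in all 4 comparisons, at -0.35 ± 0.09 at 144 h in each line (adjusted p = 0.00738 in KH and 0.00637 in DNMT3ABKO cells, limma). The KH call at 144 h was lost without KH 0 h replicate 1 (-0.30, adjusted p = 0.0509, limma), and the DNMT3ABKO call at 72 h without replicate 2 of DNMT3ABKO cells at 0 or 72 h (-0.18 to -0.15, adjusted p = 0.133 and 0.197, limma) and with the replicate block (adjusted p = 0.0515, limma). Eif1a, its autosomal paralog, was not called, at 144 and 146 TPM in KH cells at 0 h and 130 and 130 TPM at 144 h, and 101 and 149 TPM and then 144 and 153 TPM in DNMT3ABKO cells. Eif1, which guards start codon choice, read 535 and 608 TPM at 0 h, 444 and 461 TPM at 72 h and 554 and 561 TPM at 144 h in KH cells and was not called. Eif1b rose in KH cells at 144 h from 24.5 and 25.5 TPM to 31.3 and 29.4 TPM (0.27 ± 0.08, adjusted p = 0.0221, limma), and read 20.9 and 24.6 TPM and then 23.1 and 23.0 TPM in DNMT3ABKO cells. The KH call of Eif1b was lost without either KH 0 h replicate or KH 144 h replicate 1 (0.22 to 0.29, adjusted p = 0.0501 to 0.132, limma).

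Of the factors that act at subunit joining, Eif6, which keeps the large subunit from joining early, fell in all 4 comparisons. It read 156 and 157 TPM in KH cells at 0 h, 122 and 114 TPM at 72 h and 122 and 124 TPM at 144 h, and 146 and 125 TPM, 106 and 111 TPM, and 109 and 105 TPM in DNMT3ABKO cells. At 144 h the log2 fold change was -0.34 ± 0.08 in each line (adjusted p = 0.00416 in KH and 0.00381 in DNMT3ABKO cells, limma). The call of Eif6 in DNMT3ABKO cells at 72 h was lost without DNMT3ABKO 72 h replicate 1 (-0.28, adjusted p = 0.0504, limma). Eif5, the GTPase activator of eIF2, rose in DNMT3ABKO cells from 202 and 242 TPM to 297 and 282 TPM at 72 h and 282 and 288 TPM at 144 h (0.37 ± 0.08 at 144 h, adjusted p = 0.00387, limma). In KH cells it read 241 and 253 TPM, 263 and 282 TPM, and 249 and 257 TPM and was not called, and the difference between the lines was not called at either time. Eif5b was called in no comparison with 0 h. Eif4a3, an exon junction helicase and not an initiation factor, fell in all 4 comparisons, from 222 and 244 TPM to 194 and 198 TPM in KH and from 218 and 217 TPM to 182 and 194 TPM in DNMT3ABKO cells at 144 h. Each of its 4 calls was lost on leaving out 1 library, in KH cells KH 0 h replicate 2, KH 72 h replicate 2 (72 h) or KH 144 h replicate 1 (144 h), and in DNMT3ABKO cells DNMT3ABKO 72 h replicate 2 (72 h) or 144 h replicate 1 (144 h), with log2 values of -0.24 to -0.17 (adjusted p = 0.0527 to 0.113, limma).

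Between 72 and 144 h few factors changed. In KH cells 1 was called higher (Eif1b), against 7.24% of all genes, and 4 lower (Eef1akmt1, Eef1akmt4, Eef2kmt and Eif2d), against 15.6%. In DNMT3ABKO cells 1 was called higher (Eif2s2), against 8.81%, and 3 lower (Eef1akmt1, Eef1akmt4 and Eef2kmt), against 18.5%. The same 3 methyltransferases were called lower in both lines. Eef1akmt4 in KH cells was not called with the replicate block (adjusted p = 0.0662, limma) or the rescaling (-0.26, adjusted p = 0.0515, limma). Its KH call was also lost without any 1 library of KH cells at 72 or 144 h (-0.33 to -0.29). The KH call of Eef1akmt1 was lost without KH 72 h replicate 1 or KH 144 h replicate 2 (-0.33 to -0.29). In DNMT3ABKO cells the calls of Eef2kmt (-0.51 to -0.35) and Eif2s2 (0.26 to 0.35) were lost without either 72 h replicate or 144 h replicate 2. Eef1akmt1 fell by 0.38 on the log2 scale in KH and by 0.60 in DNMT3ABKO cells between these times, and Eif2s2 rose by 0.31 ± 0.08 in DNMT3ABKO cells. These counts were small and moved with single libraries. The KH count of 5 was 1 without KH 72 h replicate 1, 2 without KH 72 h replicate 2 or either KH 144 h replicate, and 11 without either DNMT3ABKO 0 h replicate. The DNMT3ABKO count of 4 was 2 without either DNMT3ABKO 72 h replicate or DNMT3ABKO 144 h replicate 2, and 9 without either DNMT3ABKO 0 h replicate. The rescaling gave 6 higher and 3 lower in KH and 7 higher and 3 lower in DNMT3ABKO cells. Over all genes tested the calls then rose from 3597 to 4403 and from 4289 to 5237.

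Between the lines at 0 h, 1 factor was called higher in DNMT3ABKO cells, Eif2b5, against a background of 4.92%, and 1 lower, Eif4g3, against 4.14%. The log2 differences were 0.36 ± 0.06 (adjusted p = 0.00549, limma) and -0.83 ± 0.11 (adjusted p = 0.00109, limma). The count of 2 rose without DNMT3ABKO 0 h replicate 2, with most of the factors lower, and the count over all genes tested rose as well. The median log2 difference was then -0.18 for the factors and -0.13 for all genes, where the full fit gave -0.10 and -0.05. Without any other single library the count hardly moved. At 72 h, 3 factors were called higher in DNMT3ABKO cells (background 9.26%) and 7 lower (background 10%). The count of 10 was 3 without KH 72 h replicate 1, KH 72 h replicate 2 or DNMT3ABKO 72 h replicate 2, and 4 without DNMT3ABKO 72 h replicate 1. At 144 h, 4 were called higher (background 11%) and 9 lower (background 15.5%). The count of 13 fell without any 1 library of either line at 144 h and rose without either DNMT3ABKO 0 h replicate. The count over all genes tested moved in the same way.

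The largest called differences between the lines at 72 h were those of Eef2kmt (-0.63 ± 0.13), Eef1akmt1 (-0.58 ± 0.08), Eif2s2 (0.55 ± 0.08), Eif2ak2 (-0.40 ± 0.12) and Eef1akmt2 (-0.39 ± 0.12), all as DNMT3ABKO over KH on the log2 scale. At 144 h they were Eef1akmt1 (-0.80 ± 0.08), Eif2s2 (0.73 ± 0.08), Eif2ak2 (-0.47 ± 0.12), Eif2ak4 (-0.41 ± 0.08) and Eef2kmt (-0.39 ± 0.13). Several of these calls rested on single libraries. At 72 h, the call of Eef1akmt2 was lost without any 1 of 8 libraries, all but the DNMT3ABKO 0 and 144 h pairs (-0.42 to -0.36, adjusted p = 0.0544 to 0.203, limma). That of Eif2ak2 was lost without any 1 library of either line at 72 h or of KH cells at 144 h (-0.45 to -0.36, adjusted p = 0.055 to 0.189, limma), and that of Eef2kmt without KH 72 h replicate 2 or DNMT3ABKO 72 h replicate 1 (-0.59 to -0.56, adjusted p = 0.0565 to 0.0631, limma). At 144 h, the call of Eef2kmt was lost without any 1 of the libraries other than the DNMT3ABKO 0 h pair (-0.51 to -0.27, adjusted p = 0.0509 to 0.268, limma), and that of Eif2ak2 without either KH 144 h replicate or DNMT3ABKO 144 h replicate 1 (-0.50 to -0.39, adjusted p = 0.0552 to 0.105, limma). Eef1akmt2, a lysine methyltransferase of eEF1A, read 12.7 and 13.1 TPM in KH and 9.83 and 9.40 TPM in DNMT3ABKO cells at 72 h. Eif2b5 was higher in DNMT3ABKO cells at all 3 times, with log2 differences of 0.27 ± 0.06 at 72 h and 0.36 ± 0.06 at 144 h, that at 72 h not called without any 1 library of either line at 72 h (0.26 to 0.28, adjusted p = 0.0721 to 0.0849, limma).

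The response itself was compared between the lines by an interaction term. At 72 h, 2 factors rose more in DNMT3ABKO cells, Eif2s2 and Eif4g3, against a background of 3.38% of all genes, and 0 had a negative difference, against 1.86% (limma). At an unadjusted p under 0.05 there were 11 of 61 factors at 72 h (18%), against 18.2% of all genes tested. The 144 h counterpart was 9 of 61 (14.8%), against 23.0% of all genes tested. At 144 h, the same 2 were called with a positive difference, against 4.89%, and Eef1akmt1 with a negative one, against 3.7%. The difference for Eif2s2 was 0.56 ± 0.12 at 72 h (adjusted p = 0.0236, limma) and 0.74 ± 0.12 at 144 h (adjusted p = 0.00332, limma). For Eif4g3 it was 0.78 ± 0.15 (adjusted p = 0.0176, limma) and 0.61 ± 0.15 (adjusted p = 0.0361, limma), and for Eef1akmt1 -0.65 ± 0.12 at 144 h (adjusted p = 0.00776, limma). Both differences for Eif4g3 rest on the 0 h libraries in which the lines already differed. Without DNMT3ABKO 0 h replicate 2 many more factors were called at both times, and more of all genes as well. The median log2 difference was then 0.15 for the factors and 0.10 for all genes at 72 h, and 0.14 and 0.09 at 144 h. The count at 144 h also rose without DNMT3ABKO 0 h replicate 1. Both calls at 72 h were lost without KH 0 h replicate 2, KH 72 h replicate 2 or either DNMT3ABKO 72 h replicate. That of Eif2s2 was also lost without KH 72 h replicate 1, and that of Eif4g3 without KH 0 h replicate 1.

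Genes outside the factor family that act on it are given as counts of calls, to be read beside the shares over all genes tested. Those were 28.3% higher and 19.5% lower in KH cells at 72 h, and 27.4% and 23.9% at 144 h. In DNMT3ABKO cells they were 34.3% and 21.6% at 72 h, and 31.4% and 26.2% at 144 h. No list was tested against these shares. In the list of cap and poly(A) binding proteins and their regulators, 4 of 14 were called higher and 3 lower in KH cells at 72 h, 5 and 5 at 144 h, 4 and 3 in DNMT3ABKO cells at 72 h, and 4 and 5 at 144 h. Pdcd4, which binds and inhibits eIF4A, rose from 18.4 and 20.7 TPM to 46.8 and 45.6 TPM at 72 h and 50.5 and 51.3 TPM at 144 h in KH cells, and from 21 and 24.3 TPM to 56.8 and 57.1 TPM at 144 h in DNMT3ABKO cells. The change on the log2 scale at 144 h was 1.34 ± 0.08 (adjusted p = 1.09e-06, limma) and 1.30 ± 0.08 (adjusted p = 7.56e-07, limma), above that of any factor gene there. Eif4ebp1, the repressor of eIF4E that mTOR inactivates, fell from 119 and 126 TPM to 78.9 and 78.4 TPM in KH cells at 144 h (-0.63 ± 0.09, adjusted p = 0.000341, limma) and from 102 and 128 TPM to 79.8 and 76.5 TPM in DNMT3ABKO cells (-0.54 ± 0.09, adjusted p = 0.000726, limma). Eif4ebp2 was not called. Eif4ebp3, at most 1.85 TPM in any library, was called higher in KH cells (1.21 ± 0.12 at 72 h and 0.90 ± 0.12 at 144 h). In DNMT3ABKO cells it was not called (-0.04 and -0.05). The difference between the lines in the 144 h response was -0.95 ± 0.17 (adjusted p = 0.00733, limma). At 0 h it read 0.241 and 0.183 TPM in KH and 1.03 and 0.989 TPM in DNMT3ABKO cells. Pabpc4, a poly(A)-binding protein, fell by 0.84 and 0.76 on the log2 scale at 144 h.

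In the list of other genes of the eIF2 cycle, 1 of 7 tested was called higher and 2 lower in KH cells at 72 h, 2 and 2 at 144 h, 2 and 1 in DNMT3ABKO cells at 72 h, and 2 and 0 at 144 h. The shares over all genes just given are the background for this list and for those that follow. Ppp1r15a, which directs the phosphatase of eIF2 alpha, read 43.7 and 47.4 TPM in KH cells at 0 h, 64.2 and 61.2 TPM at 72 h and 41.1 and 44.7 TPM at 144 h. For DNMT3ABKO cells the levels were 34.1 and 40.8 TPM, 63.8 and 66.3 TPM, and 55.9 and 57.0 TPM. The difference between the lines in the 144 h response was 0.67 ± 0.13 (adjusted p = 0.00933, limma). Among the 6 termination and recycling factors, 1 was called higher in each of the 4 comparisons, Gspt2, and 3, 2, 1 and 1 lower. Of the 8 enzymes that modify eIF5A and eEF2, 1 rose and 1 fell in KH cells at 72 h, 0 and 3 at 144 h, 2 and 1 in DNMT3ABKO cells at 72 h, and 1 and 2 at 144 h, with Dph3, of diphthamide synthesis, lower in all 4. Of the 9 mitochondrial translation factors, 1 was called higher and 1 lower in KH cells at 72 h, 0 and 4 at 144 h, 2 and 1 in DNMT3ABKO cells at 72 h, and 0 and 4 at 144 h. Tufm, the mitochondrial counterpart of eEF1A, was lower in all 4 comparisons, by 0.51 on the log2 scale in KH and 0.38 in DNMT3ABKO cells at 144 h, the direction opposite to that of Eef1a1.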

How the data were processed

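RNA-seq of 12 libraries (6 groups of 2) was read from per-library tables of TPM. The authors trimmed reads with cutadapt (2.4), aligned them to mm10 with STAR (2.7.3a) and quantified GENCODE VM19 genes with StringTie (2.0), with versions per the labels (the study's methods give other versions of STAR and StringTie). The deposited TPM values are scaled to 1000000 per library, so read depth is unknown. ERCC RNA had been added, and spike-in levels were not analysed here. Repeated identifiers, 9 to 16 of them per library, were summed.

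Genes averaging 1 TPM or more were tested on log2(TPM + 1), where a fold change understates that of low genes. limma (3.58.1, R 4.3.3) was fitted with 1 coefficient per group over all libraries, with a trend in the prior variance, 11 contrasts and Benjamini-Hochberg adjustment over all genes (called under 0.05). The study's methods name a count test, which TPM does not allow. The fit was tested on simulated data. Tables and figures were made with Python 3.11.15, pandas 2.3.3, NumPy 2.4.6 and matplotlib 3.10.9.

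The members and lists were chosen with earlier results of these data known. Genes were named by rule: in each complex the called member with the largest rise and fall at 144 h with groups apart, members called in a difference between the lines in response, the 5 largest called differences between the lines at each time, and a fixed set of main factors and paralog pairs. Others are given by counts or single values. The TOP, pathway and marker lists are described by counts, medians or sums, without a test. Sequence sharing and overlaps were computed on GENCODE M21, in which 62 of 65 members had the coordinates of the files. As alternatives, the pseudocount was set to 0.1 TPM, low genes were kept, libraries were rescaled by median ratios, only the groups compared were fitted, the replicate number was used as a block, a log2 change of at least 0.5 was required, and single libraries were omitted. The start sequence of 1 factor is not reported here.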

Additional observations from a re-analysis of the deposited data

Results flagged for a closer look

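For 3 factors the response to mTORi differed between the lines by the interaction term, the difference being the DNMT3ABKO minus the KH log2 fold change. Eif2s2, the beta subunit of eIF2, differed by 0.56 at 72 h and 0.74 at 144 h. The call at 72 h held in 10 of 17 refits (adjusted p from 0.00198 to 0.108, limma) and that at 144 h in 17 of 17 (adjusted p from 0.000132 to 0.0245, limma). Eif4g3, a paralog of the eIF4G scaffold, differed by 0.78 at 72 h and 0.61 at 144 h, with the call held in 11 and 7 of 17 refits. Eef1akmt1, a lysine methyltransferase of eEF1A, differed by -0.65 at 144 h, and the call held in 17 of 17 refits (adjusted p from 0.00462 to 0.0453, limma). In each case every library of the treated DNMT3ABKO group lay on 1 side of its 0 h libraries. Groups of 2 are too small for a test of single libraries that stand apart.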

How the results depend on the processing

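Of 113 named fold changes, each refitted under 18 alternatives (2034 values), 1790 kept their direction and side of the threshold, 155 lost the call and 61 gained it. A further 28 changed sign, none of them called as reported, and the cause was not tested. With the rescaling these were Eif4a1 at 72 h (-0.062 in KH, -0.0054 in DNMT3ABKO), Eif1b at 72 and 144 h (-0.10 and -0.041) and Eif2s1 at 144 h (-0.027) in DNMT3ABKO cells. The others came from leaving out 1 library. In KH cells at 144 h Eif1 ranged from -0.13 to 0.059. In DNMT3ABKO cells at 72 h the ranges were -0.39 to 0.23 for Eef2k, -0.31 to 0.18 for Eif1, -0.085 to 0.14 for Eif1b, -0.25 to 0.20 for Eif2s1, -0.22 to 0.15 for Eif3j1, -0.31 to 0.30 for Eif3j2, -0.10 to 0.81 for Eif4e and -0.11 to 0.062 for Eif4g1. At 144 h they were -0.0093 to 0.55 for Eif1a, -0.095 to 0.13 for Eif1b, -0.19 to 0.26 for Eif2s1, -0.22 to 0.15 for Eif3j1, -0.35 to 0.26 for Eif3j2 and -0.14 to 0.77 for Eif4e.

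The rescaling moved the count of calls to 41 in KH cells at 72 h, 9 and 10 between 72 and 144 h in KH and DNMT3ABKO cells, 4 between the lines at 0 h and 5 for the line difference at 144 h. Over all genes tested the count of calls rose in each of these comparisons too. Fitting only the groups compared gave 32 and 31 in KH cells at 72 and 144 h, where the full fit gave 25 and 29. In DNMT3ABKO cells it gave 11 and 14, where the full fit gave 26 and 31. Over all genes tested the DNMT3ABKO counts fell by a smaller part, from 8800 to 5934 and from 9061 to 6570. Factors called lower were then 9.84% at 72 h and 13.1% at 144 h, where the full fit gave 24.6% and 36.1%. The excess of falls over the background given for DNMT3ABKO cells is that of the full fit. The full fit shares 1 estimate of each gene's spread over all groups, and the DNMT3ABKO 0 h libraries were the widest apart. The part of this in the drop was not tested. The same refit gave 14 and 11 between 72 and 144 h in KH and DNMT3ABKO cells. It gave 1, 16 and 26 between the lines at 0, 72 and 144 h, and 1 for the line difference at 72 h. Without a filter the latter count was 0. Requiring a log2 change of 0.5 left, by construction, 5 and 10 calls in KH cells at 72 and 144 h, 7 and 12 in DNMT3ABKO cells, 1 and 2 between 72 and 144 h, and 1, 3 and 2 between the lines. When single libraries were omitted, the counts over all genes tested moved widely too, so the ranges that follow are not particular to the factors. Leaving out 1 library gave 14 to 35 calls in KH cells at 72 h, 20 to 40 at 144 h and 1 to 11 between these times, and 18 to 34, 26 to 42 and 2 to 9 in DNMT3ABKO cells. It gave 2 to 27, 3 to 15 and 4 to 24 between the lines at 0, 72 and 144 h, and 0 to 20 and 2 to 18 for the line differences.

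Correlations of deviations between libraries of the same replicate number (-0.104 to 0.0996) did not show pairing, although the study states that the time points of a replicate were processed in parallel. With the replicate block, counts were 24, 25 and 4 in KH cells (72 and 144 h against 0 h, then 144 against 72 h), 23, 30 and 4 in DNMT3ABKO cells, 2, 9 and 12 between the lines, and 2 and 3 for the line differences. In all, 15 calls were lost and 3 gained, among them Eef1akmt2 between the lines at 144 h (adjusted p = 0.0453, limma). In KH cells at 144 h the calls of Eif3k, Eif4enif1, Eif4g1, Eif4h and Eif5a2 were lost and Eef2k was gained. With groups of 2 and no read depth, small changes of low genes were not resolved.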
